A study of Caenorhabditis elegans with 2 samples.

Results

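The peaks described here are the strong LIN-35 ChIP-seq peaks on the autosomes of Caenorhabditis elegans whose summits lay inside protein-coding genes but away from their promoters. They numbered 717 of the 30000 peaks in the authors' pooled list. A peak was taken when its pooled signal ranked it among the 3000 highest of that list and when it lay on chromosomes I to V. Its summit had to fall within a protein-coding gene and outside the promoter windows, which ran from 1000 bp before to 300 bp after the start of any protein-coding transcript. It also had to lie over 100 bp from any tRNA, snoRNA or snRNA gene. The peaks were thus chosen by pooled signal and position, and both are given below as descriptions without a test. Of the 2661 autosomal peaks of ranks 1 to 3000, 1464 (55.0%) had a summit in a promoter window, 717 (26.9%, 95% exact interval 25.3 to 28.7) were the genic peaks, 391 were intergenic and 89 lay at small RNA genes.

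The chromatin came from whole young adult worms of mixed sex of strain YL468, in 2 biological replicates of a single group, with no other condition in the data. YL468 carries the unc-119(ed3) allele on chromosome III and the insertion vrIs93, a construct with a LIN-35:GFP:FLAG fusion, the 3′ UTR of lin-35 and a rescuing unc-119(+) gene. The promoter of mex-5 drives the fusion, a promoter known for its use in the germ line. The labels name the antibody by lin-35 and describe the target as eGFP-lin-35, so the epitope, the tag or LIN-35 itself, is not settled. Samples were whole animals, and the parts of germ line and soma in a peak cannot be told apart. The files hold peaks and no reads, so the depth of the samples is unknown, and intervals on shares cover the counting of peaks only. All coordinates are 1-based on ce11 (WBcel235).

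LIN-35 is the worm's pocket protein, a relative of the retinoblastoma protein. Such proteins lack a DNA-binding domain and reach DNA through E2F-DP proteins, which read short GC-rich elements, and in the DREAM complex through LIN-54, which reads the cell cycle genes homology region (CHR). Both elements are best known from promoters of cell cycle genes. Worm genes are compact and often end close to a neighbour, and AATAAA is the usual polyadenylation signal near a transcript end.

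Strings of 3 kinds near the summits are shown because the results below turn on where they occur, each as 30 bases of the reference genome with the string in capitals. The first set holds E2F strings, sought as TTTCCCGC, TTTCGCGC, TTTGCCGC or TTTGGCGC on both strands within 100 bp of the summit. The lines give some of the genic peaks that hold one, in order of pooled rank, on the strand that reads as printed: M01H9.3 in its 3′ UTR (IV:4468546-4468575, minus strand), an intron of Y69A2AR.31 (IV:2659156-2659185, plus), the 3′ UTR of unc-119 (III:10908744-10908773, plus), introns of smg-3 (IV:6369699-6369728, minus), cdk-5 with kel-3 (III:13465303-13465332, minus), vha-11 (IV:2311793-2311822, minus) and mvk-1 (III:6135431-6135460, minus), and the 3′ UTR of clpf-1 (III:3400603-3400632, plus). Not every peak is printed: F14B4.1 and set-18 ranked above smg-3, and Y34D9A.8 above clpf-1, and they are left out.
M01H9.3: cactgaaaaacTTTCCCGCttcccaccacc
Y69A2AR.31: aaaaatgcaatTTTCCCGCcaaacgcatcc
unc-119: atgatgcataaTTTCCCGCcgatggaataa
smg-3: tctaatttgaaTTTCGCGCcaaaatgagtt
cdk-5 with kel-3: cctgccacgatTTTGCCGCtgtcctgtcct
vha-11: aaaatttgaatTTTCGCGCatgttgcaagt
mvk-1: ttcgtcgctcgTTTCCCGCccctaatctgg
clpf-1: ctatttatttgTTTCCCGCcctcaaaataa

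The next set holds the string GAGAGA at 5 of the stronger intron peaks, again on the strand that reads as printed. The windows lay in introns of Y111B2A.12 (III:12612745-12612774, minus), mdt-26 (II:5661839-5661868, plus), nova-1 (V:18079354-18079383, minus), zfp-1 (III:8795919-8795948, plus) and daf-14 (IV:10252512-10252541, minus).
Y111B2A.12: gcacgagagagaGAGAGAgtgtcggttaga
mdt-26: gtgaagccgcccGAGAGAgccgagaaggca
nova-1: gcattgagagctGAGAGAgacgagagaaaa
zfp-1: aggggttcgcatGAGAGAcatagagaagct
daf-14: agagagagaacgGAGAGAaatagagaacga

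The last set holds AATAAA on the strand of the host gene at strong 3′ UTR peaks: eef-1G (V:10967845-10967874, plus), M01H9.3 (IV:4468506-4468535, minus), rps-13 (III:6374101-6374130, minus), lelo-2 (III:1419869-1419898, minus) and chmp-7 (II:9056477-9056506, plus). At M01H9.3 a single summit had both the E2F string and AATAAA within 100 bp.
eef-1G: tgagtcggaaagAATAAAttgttttctatt
M01H9.3: ttatggcatgtaAATAAActgaaaataagg
rps-13: cattgttctgacAATAAAtcgttgttgttt
lelo-2: tcaggttctaccAATAAAgtcaaactaaag
chmp-7: tcatactttgaaAATAAAaacgtttttcaa

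The strongest of the genic peaks lay mostly at the far ends of genes. Of the 20 highest, 10 had their summit in a 3′ UTR, 5 in an intron, 4 in a coding exon and 1 in a 5′ UTR. The highest was in a 5′ UTR of C34C12.2 (III:3456361-3456455), where the authors' pooled signal value was 74.96 and the values of replicates 1 and 2 were 61.9 and 15.4. The summit of the next was in the 3′ UTR of prg-1, the Piwi Argonaute that carries piRNAs in the germ line (I:7585173-7585528), and the signal was 49.3 pooled, 37.2 in replicate 1 and 11.8 in replicate 2. The 3′ UTR of car-1, which encodes an RNA-binding protein of germ granules (I:12905802-12906157), had 42.5 pooled, 35.9 in replicate 1 and 9.37 in replicate 2. These 3 were the genic peaks above a pooled signal of 40. The scale of the signal is not stated and the replicates' values were not on a common scale, so replicate values are not compared in size.

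Among the other strong 3′ UTR peaks, that of tir-1, the worm relative of SARM1, had a signal of 37.4 pooled, 31.6 in replicate 1 and 12.5 in replicate 2 (III:3869429-3869784). At eef-1G, for a subunit of translation elongation factor 1, it was 36.9, 28.7 and 8.06 in the same order (V:10967628-10967983). At M01H9.3 it was 36.4, 29.1 and 9.84 (IV:4468335-4468690). The heterochronic zinc finger gene lin-29 had 34.6, 26.7 and 7.503 (II:11917534-11917889). These 4 summits lay between 8 and 63 bp from the nearest protein-coding transcript end. The remaining 3′ UTR peaks of the 20 highest were at rps-13, a ribosomal protein gene of the small subunit (33.7 pooled), lelo-2 (33.6), the ESCRT gene chmp-7 (33.1) and the nuclear hormone receptor gene nhr-61 (32.9).

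The strongest intron peak was in the first intron of mef-2, a MADS-box transcription factor gene (I:9097562-9097917), at 39.98 pooled, 34.7 in replicate 1 and 7.10 in replicate 2. Next was intron 4 of Y111B2A.12 (III:12612506-12612861), at 39.3, 29.8 and 11.1. Intron 2 of mdt-26, for a subunit of Mediator (II:5661645-5662000), had 37.8, 35.5 and 6.01. The first intron of nova-1, for an RNA-binding protein related to Nova (V:18079192-18079547), had 33.6, 20.3 and 7.08. These introns were 2377, 7076, 386 and 4363 bp long, so strong intron peaks were not tied to one length. An intron of Y69A2AR.31 (31.9 pooled) and one of zfp-1, the worm relative of AF10 (31.8), came next.

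The strongest coding exon peaks also lay near gene ends. F31E3.12 (III:6969824-6970179) had 38.5 pooled, 13.5 in replicate 1 (rank 1141 of its list) and 28.6 in replicate 2 (rank 39). lmd-2 had 38.4, 25.8 and 10.9 (I:4645344-4645699), and zig-7, an immunoglobulin-domain gene, had 37.9, 24.3 and 7.72 (I:4790538-4790893). arl-13, for a small GTPase of cilia, had 37.6, 22.05 and 19.9 (I:2068812-2069167). With dos-3 (31.1 pooled) and lgc-31 (30.02 pooled), these 6 summits were 24 to 137 bp from a transcript end. Besides C34C12.2 there were 4 peaks in 5′ UTRs, at rsbp-1, egl-30, R03D7.2 and swp-1, with pooled signals of 14.4, 13.8, 13.3 and 12.5.

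**Figure D1:**
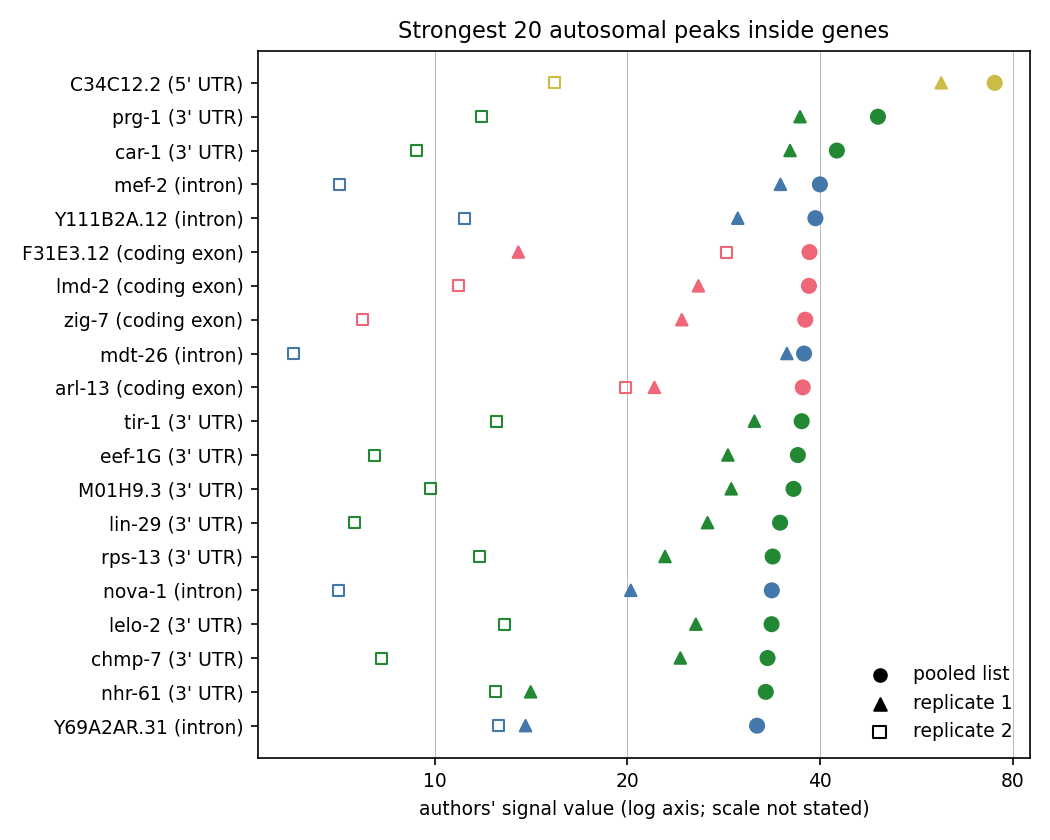
Signal values of the authors' lists (x axis, logarithmic, scale not stated) at the 20 strongest genic peaks (y axis, host gene and part of the gene), as circles for the pooled list, triangles for replicate 1 and open squares for replicate 2, coloured by part of the gene. All 20 were among the 3000 highest peaks of both replicates' own lists.

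Over all 717 peaks the pooled signal ran from 11.9 to 74.96 with a median of 14.2, against a median of 17.3 for the promoter peaks of the same ranks. The width was 356 bp at the median and never more. At 83 peaks (11.6%) the summit lay outside the promoter windows but the interval reached into one. The authors' thresholded list held 48 of the genic peaks (6.69%), beside a background of 18.3% for all autosomal peaks of ranks 1 to 3000, a share that follows from the pooled ranking and is read no further. The 28 of these beyond the 20 highest had signals between 24.9 and 31.8. At the lower limit of rank 3000 stood cest-32 (rank 2993, signal 11.92), Y39A3A.4 (rank 2999, 11.90) and gpr-158 (rank 3000, 11.90) on the inside. Just outside it were snt-3 (rank 3002), M01B12.4 (rank 3003) and C08B6.10 (rank 3004), all at 11.90, so the limit fell in a continuous run of values.

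Genic peaks were split by what lay under the summit, a coding exon taking precedence over a UTR and a UTR over an intron where transcripts differ. Any other base of a gene body counted as intron, and of the 334 intron summits 332 lay in a gap between exons. Introns held 334 (46.6%, 42.9 to 50.3), coding exons 217 (30.3%, 26.9 to 33.8), 3′ UTRs 161 (22.5%, 19.4 to 25.7) and 5′ UTRs 5 (0.697%). Of the autosomal bases that the rule could choose from, 55.9% were intronic, 39.0% coding, 4.63% in 3′ UTRs and 0.475% in 5′ UTRs. Introns and coding exons thus had a smaller share of peaks than of bases, and 3′ UTRs a larger one. The 10488 genic peaks of ranks 3001 to 30000 were 60.6% intronic, 31.0% coding and 7.78% in 3′ UTRs.

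The 3′ UTR share was lower at each step down the ranks, a description for which no test was made. It was 43.8% (21 of 48, interval 29.5 to 58.8) at ranks 1 to 550 and 28.05% (23 of 82) at ranks 551 to 1000. It was 25.1% (65 of 259) at ranks 1001 to 2000 and 15.9% (52 of 328, 12.1 to 20.3) at ranks 2001 to 3000. Among lower peaks it was 10.4% at ranks 3001 to 10000 and 6.90% beyond. The intron share had the opposite order, with 29.2% at the top and 61.5% in the last band. Genic peaks as a whole made up 9.86% of autosomal peaks at ranks 1 to 550, 37.4% at ranks 2001 to 3000 and 46.9% beyond rank 10000. Eligible genic bases made up 47.4% of the autosomes, so the lowest band lay close to the share of bases.

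**Figure D2:**
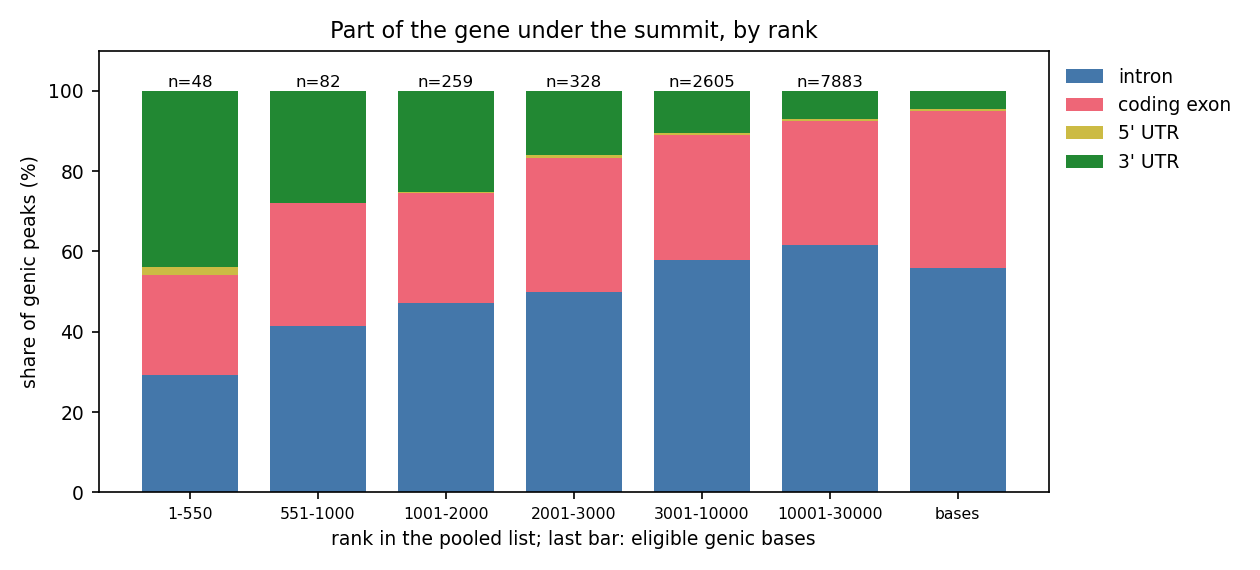
Share of autosomal genic peaks away from promoters (y axis, percent) whose summit lay in an intron, coding exon, 5′ UTR or 3′ UTR, by rank band in the pooled list (x axis), with the number of peaks above each bar and the eligible bases as the last bar. The 3′ UTR share is 43.8% at ranks 1 to 550 and 6.90% in the last band, against 4.63% of bases.

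The nearness to gene ends was not confined to summits in annotated 3′ UTRs. Of the 717 genic peaks, 237 (33.1%, 29.6 to 36.6) lay within 300 bp of a protein-coding transcript end, of the host or of a neighbour, and 97 of them were not in a UTR. The background for all autosomal genic peaks away from promoters was 15.2%. The share was 14.0% in the peaks of ranks 3001 to 30000 and 10.7% of eligible bases. In coding exons 77 of 217 peaks (35.5%, 29.1 to 42.2) were that close, against 12.8% of eligible coding bases and 16.6% of lower-ranked coding exon peaks. At ranks 1 to 550 it was 11 of 12 coding exon peaks (91.7%), and at ranks 2001 to 3000 it was 28 (25.7%).

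Few intron peaks were near an end, 20 of 334 (5.99%, 3.70 to 9.10), and few intron bases were (3.42%). Lower-ranked intron peaks stood at 4.30%, inside that interval. For 3′ UTR peaks nearness to an end follows from the class, at 140 of 161 (86.96%) against 80.2% of 3′ UTR bases. The median distance to the nearest end was 83 bp for 3′ UTR peaks, 535 bp for coding exon peaks and 2143 bp for intron peaks. Within 50 bp of an end there were 81 of the 717 peaks (11.3%), against 3.15% of lower-ranked genic peaks and 2.23% of windows tiled over the eligible bases.

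**Figure D3:**
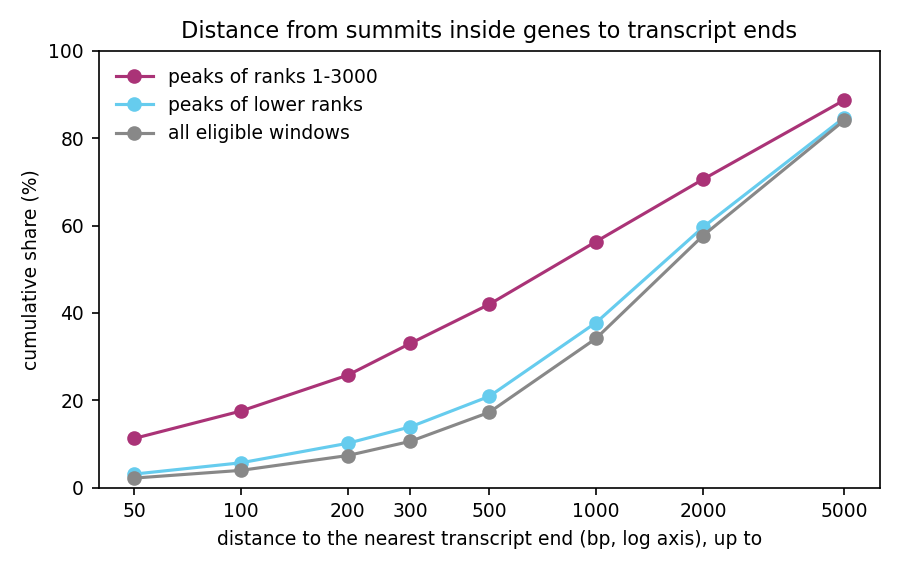
Cumulative share (y axis, percent) of summits within a given distance of the nearest protein-coding transcript end (x axis, bp, logarithmic), for the genic peaks of ranks 1 to 3000, those of ranks 3001 to 30000 and windows tiled over all eligible bases. At 300 bp the shares are 33.1%, 14.0% and 10.6%, and the curves come closer together at 5000 bp.

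Many of these gene ends faced the end of the next gene. For 142 of 236 peaks within 300 bp of an end (60.2%) the next gene beyond that end ran toward it from the other strand, a convergent pair. The share was 52.4% for the lower-ranked peaks near an end and 51.2% for tiled windows near one. These 2 are the fair comparison, since the rule removes ends that lie close to another gene's start. AATAAA on the host strand within 100 bp of the summit was present at 60 of 152 3′ UTR peaks with a single host gene (39.5%, 31.6 to 47.7). The share was 32.01% of tiled 3′ UTR windows, just inside that interval, 28.4% of lower-ranked 3′ UTR peaks and 16.02% of the other genic peaks. The AATAAA strings printed for eef-1G, M01H9.3, rps-13, lelo-2 and chmp-7 belong to the 3′ UTR peaks that hold one. A match is only a description of the letters in the window.

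Intron peaks differed among themselves in base composition along the ranks. Within 100 bp of the summit they had a median GC content of 46.3% at ranks 1 to 550, 41.3% at ranks 551 to 1000 and 33.3% at ranks 2001 to 3000. The median over all 334 was 35.3%, against 32.8% for lower-ranked intron peaks and 33.3% for tiled intron windows. Of the 20 highest intron peaks 12 were above 45% GC, and of all intron peaks 47 were. Base composition can itself move a ChIP signal, and its part here was not tested.

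The string GAGAGA followed the same order. It occurred within 100 bp on either strand at 67 of 334 intron peaks (20.1%, 15.9 to 24.8), against 9.03% of lower-ranked intron peaks, 7.996% of tiled intron windows and a background of 19.3% over all autosomal peaks of ranks 1 to 3000. The intron share lay near that background, with promoter peaks at 19.6% (tiled promoter windows 11.2%) and intergenic peaks at 23.5%. At ranks 1 to 550 it was 9 of 14 intron peaks (64.3%), at ranks 551 to 1000 38.2% and at ranks 2001 to 3000 14.0%. The same shares were not taken by band for the other classes, so this order is not shown to be particular to introns. GAGAGA stood at 5 of the 6 strongest intron peaks, those in mef-2, Y111B2A.12, mdt-26, nova-1 and zfp-1. In coding exons it was no more frequent in the genic peaks (22 of 217, 10.1%) than in tiled windows (10.3%). In 3′ UTRs it occurred at 30 of 161 (18.6%) against 14.1% of windows, within the interval of 12.9 to 25.5. The GC box string GGGCGG occurred at 25 intron peaks (7.49%, 4.90 to 10.9), against 3.38% of tiled intron windows and a background of 7.14% over all autosomal peaks of ranks 1 to 3000.

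Intron length and order set these peaks little apart. The intron at the summit had a median length of 900 bp, against 978 bp for introns weighted by their bases. The first intron held 71 of 332 intron peaks (21.4%), against 18.001% of intron bases. A noncoding gene other than the excluded kinds lay within 100 bp of 42 of the 717 summits (5.86%, against 3.86% of bases). Most of these were annotated as ncRNA (23) or piRNA (11). One intron peak of ints-8, an Integrator subunit gene, lay at rpr-1, the RNA of ribonuclease P (I:13463845-13464200), with a signal of 29.9 pooled, 24.6 in replicate 1 and 15.2 in replicate 2. That peak was singled out after its values were seen.

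E2F strings were rarer at genic peaks than at promoter peaks. They occurred at 30 of 717 genic peaks (4.18%) and at 161 of 1464 promoter peaks of the same ranks (10.997%), with 8.31% over all autosomal peaks of ranks 1 to 3000. The odds ratio was 0.354 (95% interval 0.229 to 0.531), and the Benjamini-Hochberg adjusted p over 5 motif tests was 1.5e-07 by Fisher's exact test, two-sided. Peaks are not independent replicates, so this p describes the lists. The genic share was near that of tiled genic windows (3.25%) and of lower-ranked genic peaks (3.38%), while tiled promoter windows stood at 3.24%. Intron peaks had 18 of 334 (5.39%) and coding exon peaks 7 of 217 (3.23%), and this difference did not pass the test (odds ratio 1.71, 0.666 to 4.92, adjusted p = 0.3 by Fisher's exact test). It passed in the list of replicate 2 alone (odds ratio 2.75, adjusted p = 0.033 by Fisher's exact test) and was 1.06 in that of replicate 1. The same order was present in tiled windows without any peak, 4.47% in introns and 1.63% in coding exons. Lower-ranked peaks had 4.34% and 1.69%, so the order is not shown to be particular to these peaks. 3′ UTR peaks had 5 of 161 (3.11%).

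Of the 30 genic peaks with an E2F string, 8 were among the 3000 highest peaks of both replicates, and 12 were listed nowhere in replicate 2. Of all 717 genic peaks, 125 (17.4%) were among the 3000 highest of both, and 464 (64.7%) were listed in replicate 2. These counts are thus not read as a trait of peaks with an E2F string. Peaks that hold one are named here by pooled signal. The strongest was the 3′ UTR peak of M01H9.3, the only one among the 20 highest genic peaks. The next was the intron peak of Y69A2AR.31, with 26.8 pooled, 13.9 in replicate 1 and 12.6 in replicate 2 (IV:2658899-2659254). A tRNA pseudogene, a kind that the rule does not exclude, lay within 100 bp of this summit. That intron held 2 overlapping peaks, which met the same peaks in each replicate. The unc-119 3′ UTR peak had 26.03, 17.5 and 14.4 (III:10908592-10908947), at a gene whose sequence the transgene also carries. F14B4.1 (20.8 pooled) and the SET-domain gene set-18 (20.8) followed. smg-3, a gene of nonsense-mediated decay, had 20.3 pooled and 17.9 in replicate 1 and was listed nowhere in replicate 2. The peak in introns of cdk-5 and kel-3 (18.8 pooled) was likewise missing from replicate 2, while that of vha-11, a subunit of the vacuolar ATPase, had 17.8, 9.62 and 8.98.

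The other 22 peaks with an E2F string had pooled signals of 16.96 or less and lay in mvk-1, Y34D9A.8, clpf-1, C01G5.25, Y39A3CL.7, D1069.3, Y55F3BR.2, vha-11 again, mog-4, eat-3, unc-26, osgn-1, egl-8, ntl-3, F53F1.3, kup-1, maph-9, C26C6.8, ensa-1, ZK938.3, cyp-13A11 and kin-4. Of these, clpf-1 encodes a pre-mRNA cleavage factor, unc-26 the synaptic phosphatase synaptojanin, and mog-4 an RNA helicase of the germ line sex decision. Bases masked as repeats or low-complexity sequence made up between 1.99% (unc-26) and 92.5% (Y39A3CL.7) of the windows of these 22 peaks. The median was 28.4% over all genic peaks and 41.0% over intron peaks. The part of repeats in these strings was not tested. The peaks at Y34D9A.8 and ntl-3 and the weaker one at vha-11 were among the 3000 highest of both replicates. Each met the same replicate peaks as another genic peak beside it, which at ntl-3 lay in a neighbouring gene. They are thus not separate observations.

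CHR strings, sought as TTCGAA or TTTGAA on both strands, were common everywhere. They occurred at 358 genic peaks (49.9%) and 846 promoter peaks (57.8%), with 54.1% over all autosomal peaks of ranks 1 to 3000. The odds ratio was 0.729 (0.606 to 0.875, adjusted p = 0.0015 by Fisher's exact test), so the genic peaks had fewer. The share was also below that of tiled genic windows (53.97%) and of lower-ranked genic peaks (56.5%). Intron peaks held them more often than coding exon peaks, at 54.8% against 42.9% (odds ratio 1.61, 1.13 to 2.32, adjusted p = 0.011 by Fisher's exact test). Tiled windows had the same order without any peak, 60.5% in introns and 44.3% in coding exons. When only windows of 35 to 45% GC were kept, the odds ratio was 1.12 and the adjusted p by Fisher's exact test 0.71. The call was also lost in the list of replicate 1 alone (1.28, adjusted p = 0.28) and at ranks 1 to 1000 (1.08, adjusted p = 1, both by Fisher's exact test). The GATA string TGATAA, on both strands, occurred at 15.8% of genic and 13.8% of promoter peaks, with 14.5% over all autosomal peaks of ranks 1 to 3000, a difference that did not pass (odds ratio 1.17, 0.902 to 1.51, adjusted p = 0.27 by Fisher's exact test). Tiled windows held it at 17.004% in genes and 19.2% in promoter windows. No string of one kind contains a string of another kind.

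**Figure D4:**
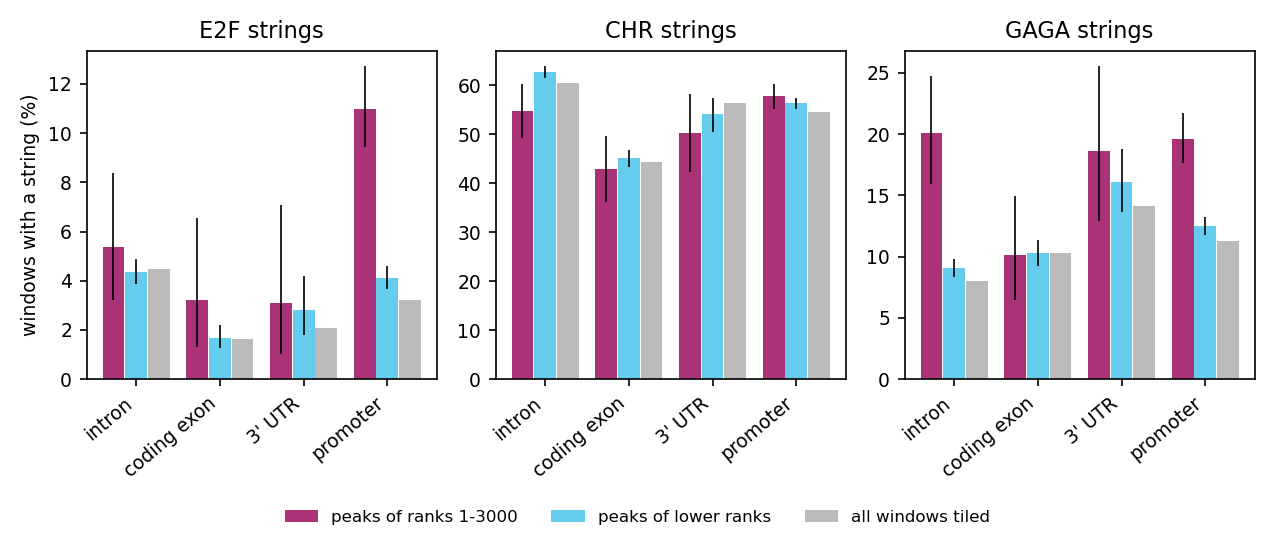
Share of windows of 100 bp either side (y axis, percent) that hold an E2F string, a CHR string or GAGAGA, by part of the gene and for promoter windows (x axis), for summits of ranks 1 to 3000, summits of ranks 3001 to 30000 and all tiled windows. Lines are 95% exact intervals for peaks, and E2F strings stand at 10.997% of promoter peaks beside 3.24% of tiled promoter windows. GAGAGA stands at 20.1% of intron peaks and 19.6% of promoter peaks, beside 7.996% and 11.2% of tiled windows.

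Replicates were compared through each replicate's own list, in which a genic peak counted as found when one of that list's 3000 highest peaks overlapped it. Replicate 1 held 405 of the 717 (56.5%), replicate 2 held 237 (33.1%), both held 125 (17.4%, 14.7 to 20.4) and neither held 200. The share in both depends on the criterion, at 5.44% among the 1000 highest of each list, 9.48% with summits within 100 bp and 60.5% (434) over whole lists. The background for both was 29.1% of all autosomal peaks of ranks 1 to 3000, and 36.6% for promoter peaks. The pooled signal that chose the peaks was made from the same replicates, so nothing is read from the size of these shares. Both held 46 intron peaks (13.8%, 10.3 to 17.9), 33 coding exon peaks (15.2%), 44 3′ UTR peaks (27.3%, 20.6 to 34.9) and 2 of the 5′ UTR peaks.

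The same shares were taken within rank bands. At ranks 1 to 550 both replicates held 83.3% of genic and 84.1% of promoter peaks. The pairs were 48.8% and 50.2% at ranks 551 to 1000, 12.4% and 16.1% at ranks 1001 to 2000, and 3.96% and 5.67% at ranks 2001 to 3000. The genic share was the lower of the pair in each band, and the bands rest on the same pooled signal that chose the peaks, so these are descriptions. Anywhere in the lists, 680 of the 717 were met in replicate 1 and 464 in replicate 2, whose list held 18226 lines to the 30000 of replicate 1.

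**Figure D5:**
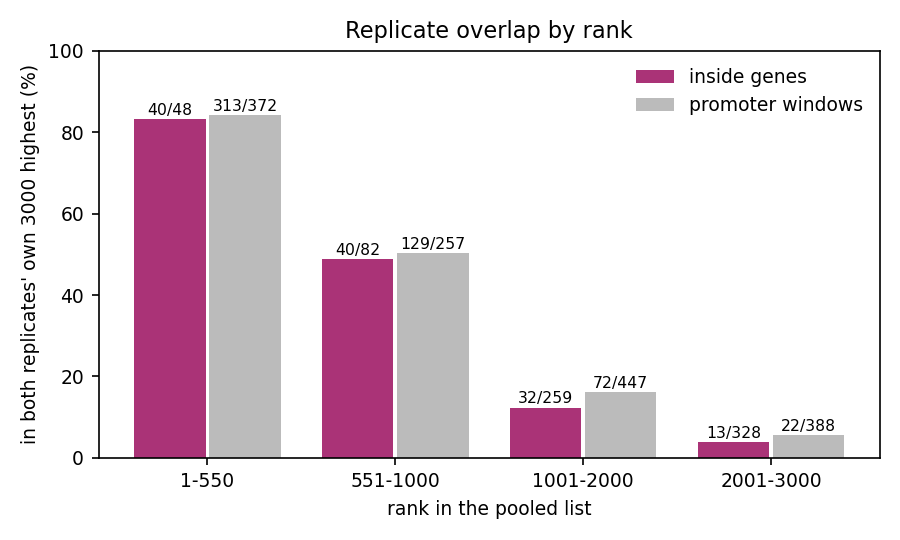
Share of peaks found among the 3000 highest of both replicates' own lists (y axis, percent) by rank band in the pooled list (x axis), for genic peaks away from promoters and for promoter peaks, with counts above the bars. Both kinds stand above 83% at ranks 1 to 550 and below 6% at ranks 2001 to 3000.

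Each replicate's own 3000 highest peaks, classed by the same position rule, also placed more peaks at gene ends than the bases would give. Replicate 1 had 750 autosomal genic peaks, of which 142 (18.9%) were in 3′ UTRs and 221 (29.5%) within 300 bp of an end. Replicate 2 had 935, of which 149 (15.9%) were in 3′ UTRs and 232 (24.8%) near an end. The bases stood at 4.63% and 10.7%. The replicates differed more in the remaining classes, with introns at 53.7% in replicate 1 and 42.1% in replicate 2 and coding exons at 26.7% and 41.4%. The own list of replicate 2 was thus richer in coding exon peaks than that of replicate 1.

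The 717 summits lay in 659 of 17242 autosomal protein-coding genes (3.82%). Of these genes 596 held 1 peak, 49 held 2 and 14 held 3 or more, and 22 peaks lay in 2 genes at once. Host genes had a median length of 4166 bp, against 1964 bp for all, and a longer gene has more bases outside its promoter windows. Of genes of 3497 bp or longer 381 of 4310 (8.84%) held a peak, and of those up to 1205 bp 46 of 4311 (1.07%).

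The gene with the most genic peaks was egl-8, for phospholipase C beta, with 5 intron peaks between V:22809 and V:29475. Their pooled signals were 24.2, 22.8, 16.7, 12.7 and 12.5, and of the 5 the strongest alone was among the 3000 highest of both replicates. lin-35 held 4, in introns at 18.3, 17.3 and 13.9 and in the 3′ UTR at 15.2, and the first of these also lay in C32F10.4. The transgene carries lin-35 and unc-119 sequence, so these 4 peaks and the 2 of unc-119 (26.03 and 21.1) can also hold reads from the insertion. The part of the transgene in them was not tested, and mex-5 had no genic peak.

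The remaining 12 genes had 3 peaks each. prg-1 had a coding exon peak at 20.9 and another at 15.4 beside its 3′ UTR peak. hrde-1, the nuclear Argonaute of inherited silencing, had 24.5 in an intron, 18.5 in the 3′ UTR and 12.6 in a coding exon. zfp-1 had intron peaks at 31.8, 19.6 and 14.7. hpl-2, an HP1 protein of heterochromatin, had 15.4, 14.3 and 13.8 in adjoining peaks that met a single peak in replicate 1 (23.5). The others were ppfr-1, a regulatory subunit of protein phosphatase 4 (26.9, 14.4 and 14.4), the kinase gene mnk-1 (26.01, 16.7 and 14.4), the synaptotagmin gene snt-4 (21.02, 17.5 and 13.6) and ercc-1, for a DNA repair nuclease subunit (19.2, 13.8 and 12.2). vha-11 (17.8, 13.1 and 12.98), sax-7, for a cell adhesion molecule related to L1CAM (15.9, 14.4 and 14.0), Y34D9A.8 (15.9, 14.9 and 13.8) and R03D7.2 (14.2, 13.3 and 12.2) completed the 12. Genic peaks that lie side by side, in one gene or in neighbouring genes, can share a replicate peak and are not separate observations.

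Of the gene lists, germ granule and germline RNA regulators had 8 host genes of 28 (28.6%, 13.2 to 48.7), beside the 3.82% of all genes, at a median gene length of 2562 bp. They were car-1 (42.5), the P granule genes pgl-1 (26.004, coding exon) and glh-1 (14.2, coding exon), and pie-1, a repressor of transcription in germline blastomeres (22.2). The others were the RNA helicase gene cgh-1 (18.5 in a coding exon and 14.2 in the 3′ UTR), fbf-1 (12.6), lin-41 (12.5) and gld-2 (12.2). The pie-1 summit was classed as intron, but it lay 0 bp from a transcript end and in no gap between exons. The pgl-1 peak had 12.4 in replicate 1 and 4.29 in replicate 2, and that of pie-1 had 14.1 and 10.6. These counts are descriptions, since the lists were chosen with earlier results of these data known.

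Cell cycle genes were among the hosts in small numbers. The intervals for DNA replication and DREAM genes include the 3.82% of all genes, and that for mitosis and kinetochore genes starts just above it. All autosomal protein-coding genes had a median length of 1964 bp. Of 43 mitosis and kinetochore genes 5 held a peak (11.6%, 3.89 to 25.1), at a median gene length of 2577 bp. They were cyb-3, for a B-type cyclin (25.1 pooled, 18.5 in replicate 1 and 6.79 in replicate 2, in the 3′ UTR), the kinesin gene klp-7 (22.7 and 20.3), the kinesin gene zen-4 (14.3), cls-2 (12.4) and the centromeric histone gene hcp-3 (11.999). Of 29 DNA replication genes 2 did (6.90%, 0.846 to 22.8), rfc-3 of the clamp loader (20.5) and mcm-7 of the replicative helicase (18.04). Of 8 DREAM complex genes 2 did (25%, 3.19 to 65.1), lin-35 itself and efl-1, for an E2F protein (14.6 in an intron, with 8.29 in replicate 1 and 8.04 in replicate 2). The lin-35 peaks can also hold reads from the transgene.

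Cytosolic ribosomal protein genes, which are short, had 3 hosts of 76 (3.95%), rps-13, rpl-13 (17.7) and rps-9 (15.5). Nuclear hormone receptors had 8 of 246 (3.25%), led by nhr-61, nhr-66 (23.5), nhr-274 (15.6) and nhr-88 (14.2). The sr chemoreceptor genes had 8 of 1135 (0.705%, 0.305 to 1.38), below the share of all genes, led by srt-47 (22.3), srbc-78 (16.8), srt-52 (16.2) and sre-4 (14.4). F-box genes had 1 of 299 (fbxa-101), C-type lectins 1 of 234 (clec-264) and collagens 1 of 161 (col-132). Heat shock protein genes had 2 of 17, hsp-17 (13.6) and hsp-90 (13.3). No peak fell in any of 47 histone genes, 45 ceh homeobox genes, 31 major sperm protein genes or the 1 autosomal vitellogenin gene. Histone and major sperm protein genes had a median length of 384 bp, so the promoter windows leave few of their bases to the rule.

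Marker genes of somatic tissues held some of the peaks too. Of 18 neuronal genes 3 did (16.7%), unc-64 (17.3), unc-104 (13.6 and 12.9) and unc-13 (13.4), in a list with a median gene length of 5868 bp. Of 14 muscle genes 2 did (14.3%), unc-22 for twitchin (21.5) and unc-60 (13.6), in a list with a median gene length of 7554.5 bp. The pharynx list had 1 of 6, tni-4 (12.4), and the intestine and hypodermis lists had none of 10 and 7. Most of the intervals are wide, such as 3.58 to 41.4 for neurons.

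By chromosome, III held 178 of the genic peaks (24.8%, 21.7 to 28.2), against 18.9% of eligible bases, 21.4% of lower-ranked genic peaks and 21.9% of promoter peaks of the same ranks. V held 123 (17.2%, 14.5 to 20.1) against 22.9% of bases and 17.3% of promoter peaks. I held 163 (22.7%), IV 132 (18.4%) and II 121 (16.9%), each within 2 percentage points of its share of bases. Chromosome III is also where unc-119 lies and from where 2 of the peaks in transgene genes come.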

How the data were processed

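The data were ChIP-seq peak lists on ce11 from 2 biological replicates. Per the deposited text notes, the authors made a list of peaks with background for each replicate and for the pooled data, together with a control library not analysed here, and a thresholded list. Each peak's signal is the authors' deposited value, of unstated scale. A −log10 q value is also deposited, by the narrowPeak convention, and was not used. The sources used here do not give the aligner, peak caller or cutoffs. Depth is unknown, so neither read counts nor counting errors of reads can be given.

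Summits were placed on Ensembl release 115 (WBcel235) and its genome sequence. Shares have exact Clopper-Pearson 95% intervals. Strings were sought within 100 bp of summits and compared by two-sided Fisher's exact tests, adjusted over 5 tests at 0.05. Tiled windows had that same length. The code was tested on simulated data. Software was scipy 1.17.1, pandas 2.3.3, numpy 2.4.6 and matplotlib 3.10.9 under Python 3.11.15. The peaks, gene lists and tests were chosen with earlier results of these data known. Named genes are hosts of the 20 highest peaks, the 6 highest of each class, 3 peaks either side of rank 3000, genes with 3 or more peaks, up to 4 hosts per list, and the 30 peaks with an E2F string. Hosts named beyond the 4 of a list, daf-14 and ints-8 were chosen after their values were seen. The ce10 lists were not used. Alternatives were other promoter windows, ranks, overlaps, string windows, GC ranges, single sites and each replicate's list.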

Additional observations from a re-analysis of the deposited data

How the results depend on the processing

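The share of genic peaks among autosomal peaks (26.9%) depends on the cutoffs that define it. It was 34.1% with promoter windows of 500 bp upstream to 100 bp downstream, 19.4% with 2000 to 500 bp, 14.5% at ranks 1 to 1000, 9.86% in the thresholded list and 28.7 to 35.2% in the lists of single replicates. The intron share was 36.9% at ranks 1 to 1000, 29.2% in the thresholded list and 42.1 to 53.7% with 1 replicate. The coding exon share was 25% in the thresholded list and 26.7 to 41.4% with 1 replicate. Leaving out the 6 peaks in lin-35 and unc-119, an alternative chosen after seeing the data, gave 26.8%, 46.4% and 30.5%. The share of genic peaks in both replicates was 14.2% when at least 50 percent of the peak had to be overlapped, 5.44% among the 1000 highest of each, 60.5% over whole lists and 9.48% with summits within 100 bp. The E2F and CHR differences between genic and promoter peaks passed in all 6 alternatives, with odds ratios of 0.272 to 0.415 and 0.353 to 0.802, and the GATA difference in none. The CHR difference between intron and coding exon peaks was lost at ranks 1 to 1000 (odds ratio 1.08, adjusted p = 1 by Fisher's exact test), at 35 to 45% GC (1.12, adjusted p = 0.71) and without replicate 2 (1.28, adjusted p = 0.28), in a range of 1.28 to 1.76 over single replicates. The cause was not tested. The E2F difference between the same classes passed without replicate 1 (2.75, adjusted p = 0.033 by Fisher's exact test) and ranged from 1.06 to 2.75 over single replicates. Tiled windows without any peak held E2F strings in the same order, at 4.47% in introns and 1.63% in coding exons. No paired analysis was possible because there is 1 group.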
